A study of Mus musculus with 12 samples.

Results

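The nuclear genes that control mitochondrial biogenesis were examined in C2C12 myotubes exposed to BAM15, a small-molecule mitochondrial uncoupler. The set consists of 10 genes named by symbol, Ppargc1a, Ppargc1b, Nrf1, Gabpa, Esrra, Tfam, Tfb1m, Tfb2m, Polrmt and Polg, among the 15113 genes of the count table. All 10 were found, and all 10 passed the filter on low counts that left 12730 genes for testing. C2C12 is an established mouse myoblast line whose cells stop dividing and fuse into myotubes when serum is lowered. Cells were expanded in medium with 10% fetal bovine serum, differentiated in 2% horse serum, and then given 20 μM BAM15 dissolved in DMSO or vehicle for 16 h. There were 6 QuantSeq libraries per condition, numbered 1 to 6, all from this 1 cell line without any genetic change. The labels do not say whether the libraries of a condition came from separate cultures, so the p-values measure the spread between these libraries, which may be technical.

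Mitochondria carry a small genome of their own, but nearly all proteins that copy and read it are made from nuclear genes. In muscle the coactivators PGC-1α (Ppargc1a) and PGC-1β (Ppargc1b) bind transcription factors such as NRF-1 (Nrf1), GABP (Gabpa encodes its DNA-binding subunit) and the orphan nuclear receptor ERRα (Esrra), and these switch on genes of respiration and of the mitochondrial DNA machinery. In that machinery, TFAM packages the genome and bends its promoters, POLRMT is the RNA polymerase, TFB2M opens the promoter, TFB1M methylates the small ribosomal RNA, and POLG is the DNA polymerase.

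Promoter windows are shown for 3 of the genes. Tfb1m was the member that rose, and Tfam is a long-known target of NRF-1 and GABP. Esrra was the member whose BAM15 effect differed most between library numbers 1 to 3 and 4 to 6. Each window runs from 250 bases before to 50 bases after the RefSeq start site (GRCm38.p6), is written 5′ to 3′ along the gene, and lies on the minus strand. The Tfb1m window spans chr17:3557706-3558005, the Esrra window chr19:6921759-6922058 and the Tfam window chr10:71237995-71238294. Capitals mark exact matches, on either strand, to any of 9 motifs named in the next paragraph.
Tfb1m: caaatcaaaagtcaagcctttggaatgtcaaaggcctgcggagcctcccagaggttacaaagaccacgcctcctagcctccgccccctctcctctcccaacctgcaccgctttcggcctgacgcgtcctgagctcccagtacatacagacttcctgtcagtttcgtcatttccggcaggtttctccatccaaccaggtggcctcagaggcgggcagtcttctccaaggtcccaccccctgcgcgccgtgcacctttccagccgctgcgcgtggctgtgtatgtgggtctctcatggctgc
Esrra: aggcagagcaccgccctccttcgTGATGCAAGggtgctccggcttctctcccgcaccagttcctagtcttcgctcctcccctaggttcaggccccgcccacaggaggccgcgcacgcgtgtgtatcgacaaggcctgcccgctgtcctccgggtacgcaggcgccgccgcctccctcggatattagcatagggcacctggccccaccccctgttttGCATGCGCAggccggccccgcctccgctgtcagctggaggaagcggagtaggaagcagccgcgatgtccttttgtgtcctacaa
Tfam: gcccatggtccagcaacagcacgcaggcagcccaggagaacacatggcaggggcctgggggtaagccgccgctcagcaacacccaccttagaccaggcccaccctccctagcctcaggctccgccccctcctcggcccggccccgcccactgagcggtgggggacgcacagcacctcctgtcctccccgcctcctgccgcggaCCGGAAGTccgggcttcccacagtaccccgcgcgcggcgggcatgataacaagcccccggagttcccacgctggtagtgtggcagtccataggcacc

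RefSeq promoter windows were matched for 9 of the 10 genes, with a pair of start sites for Nrf1, which gave 10 windows, and none was matched for Ppargc1b. The NRF-1 motif GCGCATGC occurred in the windows of 3 members, Esrra, Tfb2m and Polrmt, and in 2.71% of all 32851 RefSeq promoter windows. In the Esrra window it began at position -34 relative to the start site, and it overlapped a match to the shorter core TGCGCA, which 3 member windows and 7.76% of all windows held. The GABP motif CCGGAAGT was found in the Tfam window at -47 and in the Polg window at -38, against 3.89% of all windows. Its core CGGAAG, contained in the longer motif, was present in 5 member windows (Gabpa, Tfam, Tfb2m, Polrmt and Polg) and in 16.9% of all windows. The C/EBP-ATF response element TGATGNAAN, read by factors of the integrated stress response such as ATF4, had 1 match, at -227 in the Esrra window, and 3.95% of all windows held one. No member window held the ERR motifs TCAAGGTCA (0.423% of all windows) and AAGGTCA (4.72%), the cAMP response element TGACGTCA (1.79%) or the E-box CACGTG (7.15%). The windows of Tfb1m, Ppargc1a and Nrf1 held none of the 9 motifs. These matches describe letters in a window and are not evidence of binding. Only exact matches were sought, so a window without one may still hold a variant site, and its absence is not evidence that a factor does not bind.

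Total counts ranged from 13983725 to 18866728 per library, and the 10 genes together took between 0.0188% and 0.0232% of them. All 12 myotube markers were measured, with summed normalized counts of 369261 to 485034 in BAM15 and 382162 to 433235 in vehicle libraries. Of these 12, 2 rose and 3 fell at an adjusted p below 0.01, beside 42.3% of all tested genes called in either direction. The 8 markers of undifferentiated myoblasts summed to 5351 to 5692 in BAM15 and to 5726 to 6841 in vehicle libraries. At an adjusted p below 0.01, 4 were lower, Pax7 and the proliferation genes Top2a, Mki67 and Ccnb1. Myf5 and Hmga2 were the 2 higher ones, again beside 42.3% of all tested genes called in either direction. Of 8 markers of adipocytes, macrophages and endothelium, Cd68 was the only one matched in the table, and it rose from 13.7 ± 3.84 to 64.2 ± 8.53 normalized counts (SD, n = 6). BAM15 libraries 4 to 6 stood apart from BAM15 libraries 1 to 3, with 4940 of 12730 genes (38.8%) differing at an adjusted p below 0.05 in edgeR's quasi-likelihood test. The vehicle libraries with the same numbers differed in 0 genes by that test, with 696 at an unadjusted p below 0.05. The labels do not say what the numbers stand for. The split was chosen with earlier results of these data known. These counts, and the comparisons of the sets below, therefore describe it and are not independent tests. Results are also given within each set. In bulk RNA, fewer cells of a type and less RNA per cell cannot be told apart.

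BAM15 moved few of the regulators, and none by a factor of 2. Tfb1m rose by 53.9% and Ppargc1b fell by 19.5%, while the other 8, Ppargc1a included, did not pass an adjusted p of 0.01. Thus 2 of 10 members were called, 1 higher and 1 lower, beside 42.3% of all 12730 tested genes, of which 22.0% were higher and 20.3% lower. The study's thresholds, an adjusted p below 0.01 with a mean above 50 and a change of more than 2-fold, were passed by 0 members and by 7.28% of all genes. DESeq2 and limma-voom also placed 0 members past those thresholds. In edgeR's quasi-likelihood test 5 members had an unadjusted p below 0.05. The largest of these 5 p-values, that of Tfam (0.0402), ranked 7240 among the 12730 genes, so most tested genes were below 0.05 as well. The median log2 fold change of the 10 members was 0.12, against 0.02 over all tested genes. The libraries of BAM15 and vehicle did not overlap for 1 member, Tfb1m, and for 34.2% of all tested genes.

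**Figure D1:**
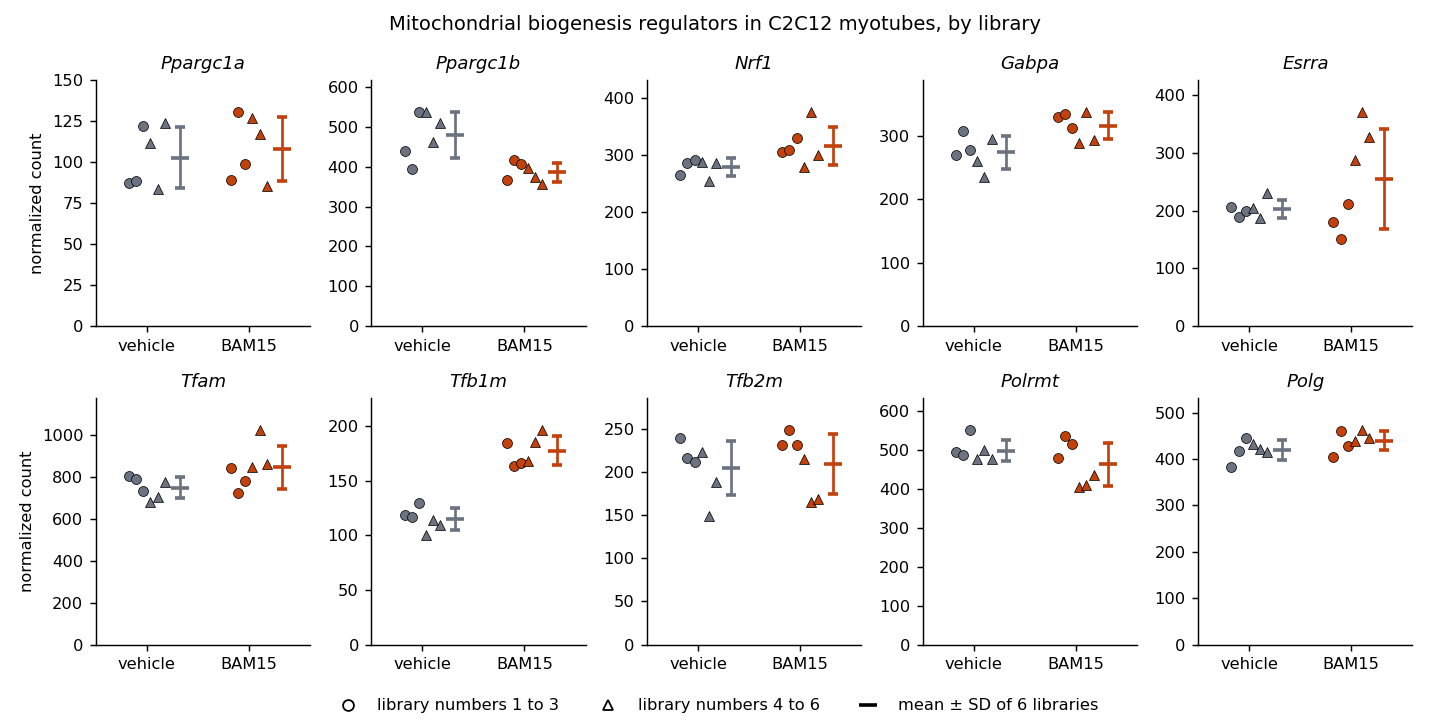
Normalized counts (vertical axes, from 0) of the 10 regulators in each vehicle library (grey) and BAM15 library (orange), with circles for library numbers 1 to 3, triangles for numbers 4 to 6, and bars for mean ± SD of 6 libraries. The Tfb1m groups do not overlap, with 163 as the lowest BAM15 value and 130 as the highest vehicle value, and the Esrra triangles under BAM15 sit between 287 and 371.

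**Figure D2:**
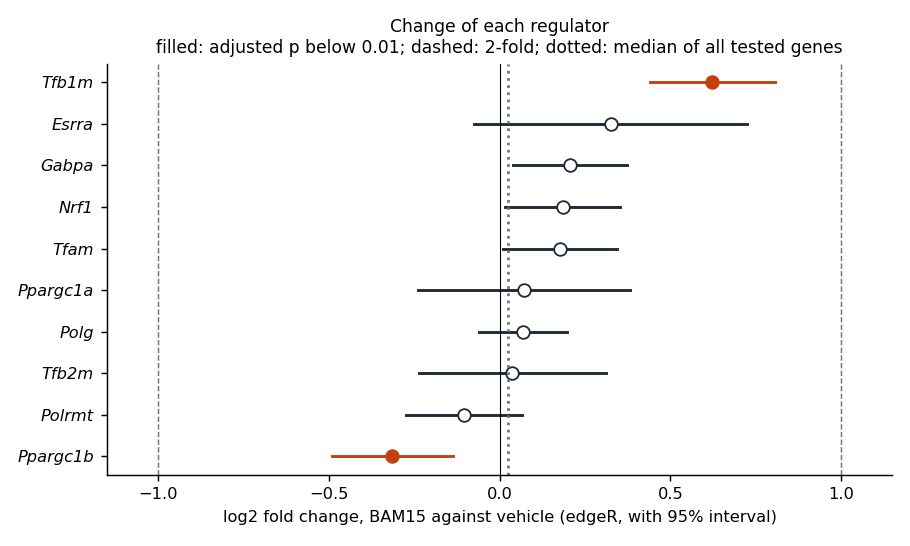
Log2 fold change of each regulator, BAM15 against vehicle, with its 95% interval from the edgeR fit on 12 libraries (horizontal axis). The intervals of Tfb1m (0.44 to 0.805) and Ppargc1b (-0.49 to -0.14) are filled because the adjusted p is below 0.01. Those of Gabpa, Nrf1 and Tfam also exclude 0 at larger adjusted p-values, and every interval ends short of the dashed lines at a 2-fold change.

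Ppargc1a (chromosome 5, 51454250 to 51567726, minus strand, GRCm38), the coactivator that responds to exercise, cold and energy stress in muscle, showed no difference that passed the test. Its normalized counts (TMM-scaled) were lowest at 83.5, median 99.9 and highest at 124 in vehicle libraries, and 85.2, 108 and 131 in BAM15 libraries. The groups overlapped over nearly their whole range, and 3 of 6 BAM15 libraries lay above the vehicle mean. The log2 fold change was 0.07 (SE 0.145), with a 95% interval of -0.24 to 0.38 and an adjusted p of 0.701. This interval leaves room for smaller changes in either direction. Reads fall near the 3′ end in this assay, so transcripts that start at alternative Ppargc1a promoters were counted together.

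Ppargc1b (chromosome 18, 61298136 to 61400431, minus strand), the related coactivator that maintains basal mitochondrial content, was lower under BAM15. Its normalized counts were 394, 486 and 538 at the lowest, median and highest vehicle library, and 357, 385 and 416 under BAM15. All 6 BAM15 libraries lay below the vehicle mean, but the ranges overlapped, because vehicle library 2 was lower than 3 BAM15 libraries. The mean went from 480 ± 58.1 to 386 ± 23.7 (SD, n = 6), a log2 fold change of -0.31 (SE 0.083, adjusted p = 0.00504, edgeR quasi-likelihood test). The call rests narrowly on the threshold. Without BAM15 library 1 or 6, or vehicle library 3, 4 or 6, its adjusted p was 0.0124, 0.0115, 0.0140, 0.0134 and 0.0128, and within numbers 1 to 3 it was 0.100 at a log2 fold change of -0.21.

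Among the genes around the coactivators, 19 of a list of 22 partners and inputs of PGC-1 were tested. Of these, 5 rose and 2 fell at an adjusted p below 0.01, beside 42.3% of all tested genes called in either direction. The median log2 fold change of the 19 was 0.08. Pparg, a fatty acid-sensing nuclear receptor, rose by 2.68 on the log2 scale from a low level (12.7 ± 5.11 to 82.3 ± 60.9 normalized counts), and 1 BAM15 library, number 5, stood at 206. Tfe3, a factor of lysosomal and mitochondrial gene expression, rose from 407 ± 29.0 to 664 ± 113. The muscle transcription factors Mef2c and Mef2a fell by 0.78 and 0.53 on the log2 scale. Pprc1, the third member of the PGC-1 family, was named here after its values were seen. It rose from 218 ± 24.2 to 318 ± 35.1 (log2 fold change 0.55, adjusted p = 1.90e-04, edgeR). The 3 coactivators of the family therefore gave a log2 fold change of 0.07, -0.31 and 0.55 in these libraries.

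Nrf1 (chromosome 6, 30047988 to 30153458, plus strand) encodes the factor NRF-1, which binds GC-rich palindromes in promoters of respiratory genes and is not the product of Nfe2l1. Its normalized counts were 255, 287 and 291 at the lowest, median and highest vehicle library, and 280, 307 and 376 under BAM15. All 6 BAM15 libraries lay above the vehicle mean while the ranges overlapped. The log2 fold change was 0.18 (SE 0.078) with an adjusted p of 0.0587 by edgeR, and it was 0.16 and 0.20 within the sets of numbers.

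Gabpa (chromosome 16, 84834925 to 84863779, plus strand) had values of 235, 274 and 307 in vehicle and 288, 321 and 338 in BAM15 libraries, again with all 6 BAM15 libraries above the vehicle mean. Its log2 fold change of 0.21 (SE 0.078) had an adjusted p of 0.0365 by edgeR, between the 0.05 and 0.01 levels. The partner subunits that carry GABP's activation domain were named after their values were seen. Gabpb2 rose (log2 fold change 0.28, adjusted p = 0.00633, edgeR), and Gabpb1 gave 0.05 on the same scale, with an adjusted p of 0.647 by edgeR.

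Esrra (chromosome 19, 6910977 to 6921813, minus strand) encodes ERRα, the main DNA-binding partner of PGC-1α in muscle. Its BAM15 libraries fell into separate sets. Normalized counts were 181, 151 and 211 in BAM15 libraries 1 to 3, and 287, 371 and 327 in BAM15 libraries 4 to 6. The 6 vehicle libraries stayed between 188 and 230, with a median of 202. Libraries 4 to 6 under BAM15 were thus above every vehicle library, whereas libraries 1 and 2 were below every one. The coefficient of variation was 34.2% under BAM15 and 7.64% in vehicle.

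Over all libraries the log2 fold change of Esrra was 0.325 (SE 0.187), with a 95% interval of -0.075 to 0.725 and an adjusted p of 0.158 by edgeR. Fitted within each set of numbers it was -0.135 (adjusted p = 0.384) for 1 to 3 and 0.651 (adjusted p = 0.00126) for 4 to 6. The difference between the sets, tested as an interaction in the same kind of edgeR fit, was 0.792 (SE 0.186, adjusted p = 0.0444), and Esrra was the only 1 of 10 members below an adjusted p of 0.05, beside 2.66% of all genes. Over 21 alternatives the adjusted p of this difference ranged from 0.00338 to 0.123. It exceeded 0.05 when the library number was a block (0.0913), and when any 1 of BAM15 libraries 1, 2, 3, 5 and 6 or vehicle libraries 1, 2, 4, 5 and 6 was left out (0.0525 to 0.123). The summed myotube markers also differed between these sets, at 454787 to 485034 in BAM15 libraries 1 to 3 and 369261 to 411378 in 4 to 6, and their part in the Esrra difference was not tested. Of the last 400 bases of the Esrra transcript, 73 lie under exons of Trmt112 on the opposite strand. Trmt112 stood at 1372 ± 70.4 normalized counts in vehicle and 1581 ± 200 in BAM15 libraries (SD, n = 6), which is 0.20 on the log2 scale with an adjusted p of 0.0379 by edgeR.

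**Figure D3:**
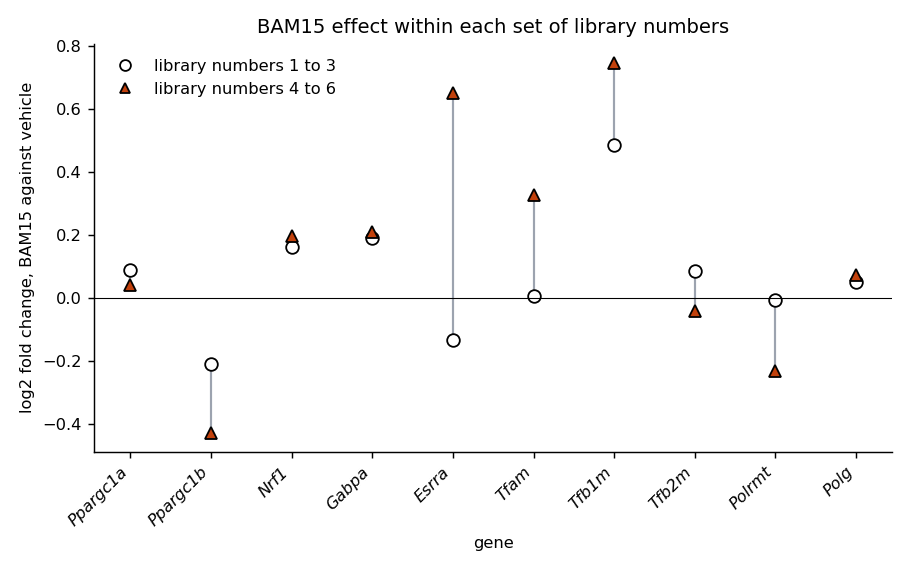
Log2 fold change of each regulator, BAM15 against vehicle (vertical axis), fitted on library numbers 1 to 3 (open circles, 3 libraries per condition) and on numbers 4 to 6 (triangles, 3 per condition). Esrra moves from -0.135 to 0.651, while Ppargc1a, Nrf1, Gabpa and Polg have both symbols close together.

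Of 10 tested relatives and partners of the nuclear factors, 6 rose and 1 fell, beside 42.3% of all tested genes called in either direction. The median log2 fold change of these 10 was 0.465. Esrrg, the related receptor ERRγ that marks oxidative muscle, rose from 5.10 ± 2.70 to 53.7 ± 7.45 normalized counts (log2 fold change 3.37, adjusted p = 3.47e-08, edgeR), and its mean over all 12 libraries was below the study's minimum of 50. Every BAM15 library was above every vehicle library for Esrrg. Thra, the thyroid hormone receptor α, rose from 1841 ± 128 to 3422 ± 377. Hcfc1, a chromatin cofactor that binds PGC-1 family members and GABP, fell from 779 ± 115 to 567 ± 74.1. Esrrb, with at most 14 counts in a library, was not tested.

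Tfam (chromosome 10, 71225464 to 71238280, minus strand) had normalized counts of 682, 754 and 805 at the lowest, median and highest vehicle library, and of 721, 844 and 1021 under BAM15. The highest value came from BAM15 library 5, and 5 of 6 BAM15 libraries lay above the vehicle mean. The log2 fold change was 0.18 (SE 0.078) with an adjusted p of 0.0706 by edgeR. It was 0.01 within numbers 1 to 3 and 0.33 (adjusted p = 0.0177) within numbers 4 to 6. The interaction of these was 0.33 with an adjusted p of 0.119, and without BAM15 library 4 it was 0.38 with an adjusted p of 0.0419.

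Tfb1m (chromosome 17, 3519256 to 3557781, minus strand), the dimethyltransferase of the small mitochondrial ribosomal RNA, gave the largest change of the 10 regulators. Its normalized counts were 101, 116 and 130 at the lowest, median and highest vehicle library, and 163, 176 and 196 under BAM15, so that every BAM15 library was above every vehicle library. The mean went from 115 ± 9.80 to 177 ± 13.3 (SD, n = 6), a log2 fold change of 0.62 (SE 0.086, adjusted p = 2.07e-05, edgeR quasi-likelihood test). It was 0.49 (adjusted p = 0.00322) within numbers 1 to 3 and 0.75 (adjusted p = 7.97e-04) within numbers 4 to 6, and its adjusted p stayed between 7.97e-09 and 0.00322 over all 24 alternatives. Tiam2, transcribed from the other strand, has exons over 142 of the final 400 bases of Tfb1m, and 26.5% of its 351 windows of 50 bases there are shared with Tiam2. Because the strand used in counting is not given in the sources used here, reads of that stretch cannot be assigned with certainty. Tiam2 counts went the other way, from 89.4 ± 11.7 to 68.3 ± 16.0 (log2 fold change -0.39, adjusted p = 0.0437, edgeR).

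The genes whose profile over the 12 libraries lay closest to that of Tfb1m were Emd, R3hdm1 and Fth1. They were chosen by the smallest root-mean-square difference of log2 ratios to the vehicle mean among 10460 genes. Emd, which encodes the nuclear envelope protein emerin, differed from Tfb1m by 0.085 on this log2 scale, R3hdm1 by 0.090 and Fth1, the ferritin heavy chain, by 0.097, against a median of 0.519 for all genes compared. For Ppargc1b the closest were Zfp292 (0.085), Ttc28 (0.085) and Aak1 (0.092), with a median of 0.372. Because these genes were picked by the smallest differences, values below the medians were fixed by the choice, and likeness was not tested.

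Tfb2m (chromosome 1, 179528055 to 179546267, minus strand), the initiation factor related to Tfb1m, had normalized counts of 149, 214 and 239 at the lowest, median and highest vehicle library, and of 165, 223 and 248 under BAM15. The ranges coincided for most of their width, and the log2 fold change was 0.04 (SE 0.128, adjusted p = 0.826, edgeR), with a 95% interval of -0.237 to 0.311. Its sign depended on the scaling, at -0.03 with library size alone.

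Polrmt (chromosome 10, 79736123 to 79746581, minus strand) had values of 478, 492 and 551 in vehicle and 405, 458 and 537 in BAM15 libraries. The log2 fold change was -0.10 (SE 0.079, adjusted p = 0.289, edgeR), with an interval of -0.27 to 0.07. The BAM15 libraries 4 to 6, at 405, 411 and 437, were below every vehicle library. Between BAM15 libraries 4 to 6 and 1 to 3, 3 of the 10 members differed at an adjusted p below 0.05, Esrra by 0.86, Polrmt by -0.29 and Tfb2m by -0.37 on the log2 scale, beside 38.8% of all genes. Between the vehicle libraries with the same numbers 0 members differed by the same edgeR test, also with 0 at an unadjusted p below 0.05. Tfb2m nevertheless gave -0.25 between the vehicle sets, in the same direction as in BAM15, and Polrmt gave -0.07. By edgeR's interaction term neither gene differed between the sets in its BAM15 effect (Tfb2m -0.12, adjusted p = 0.731, and Polrmt -0.22, adjusted p = 0.255).

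Polg (chromosome 7, 79446231 to 79466362, minus strand), the catalytic subunit of the mitochondrial DNA polymerase, had the lowest coefficient of variation of the 10 genes in both conditions (5.03% in vehicle and 4.87% in BAM15 libraries). Its normalized counts were 382, 420 and 444 in vehicle and 405, 442 and 462 in BAM15 libraries. Its log2 fold change was 0.07 (SE 0.060, adjusted p = 0.352, edgeR) with an interval of -0.06 to 0.20. Polg2, its accessory subunit, was named after its values were seen. It rose from 44.2 ± 8.32 to 74.0 ± 20.4 normalized counts (log2 fold change 0.74, adjusted p = 0.00298, edgeR), with overlapping groups.

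**Figure D4:**
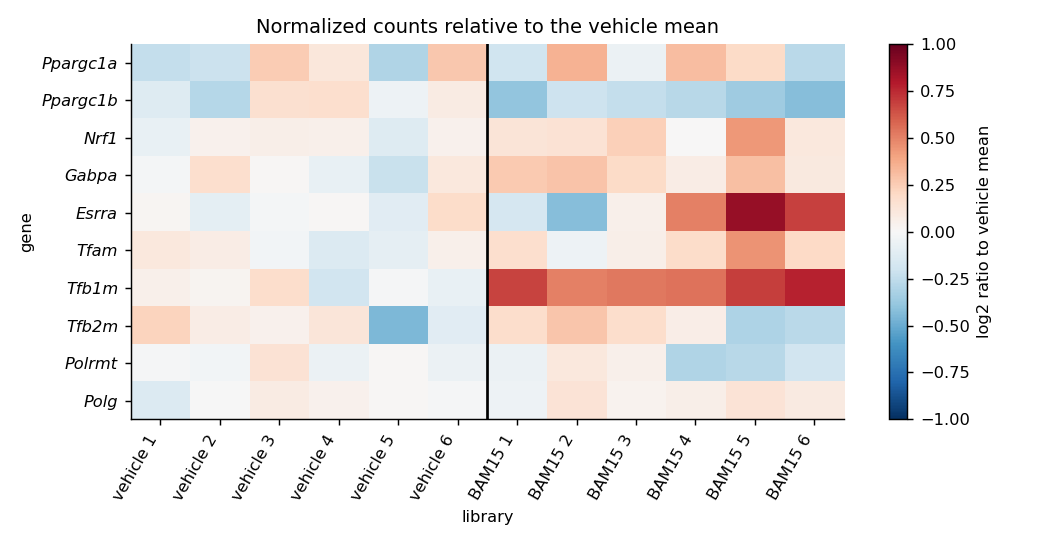
Log2 ratio of the normalized count to the vehicle mean (colour, from -1 to 1, with a pseudocount of 0.5) for each regulator (rows) in the 6 vehicle and 6 BAM15 libraries (columns). Tfb1m is between 0.50 and 0.77 in all BAM15 libraries, Ppargc1b is between -0.43 and -0.21, and Esrra runs from -0.42 in library 2 to 0.87 in library 5.

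Within sets of 3 libraries per condition, 1 member was called at an adjusted p below 0.01 for numbers 1 to 3 (Tfb1m), beside 44.4% of the genes tested there. For numbers 4 to 6, 3 members were called (Tfb1m, Ppargc1b and Esrra), beside 33.2%.

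Some single genes on the lists below had larger log2 fold changes than any regulator. Most genes named were picked for a low p-value or for passing the study's thresholds, which favours large values. All tested genes ran from -5.775 to 8.177 on this scale. Larger single values therefore do not show that the lists moved more than the regulators. The counts for the lists below stand beside 42.3% of all tested genes called in either direction, and no list was tested. Of 8 tested genes of mitochondrial transcription and the nucleoid, 2 rose and 1 fell, with a median log2 fold change of 0.33. Lonp1, the matrix protease that degrades TFAM, rose from 1158 ± 54.8 to 3234 ± 317 normalized counts (log2 fold change 1.48, adjusted p = 1.08e-10, edgeR) and passed the study's thresholds. Atad3a, a membrane ATPase tied to nucleoids, rose by 0.805 on the log2 scale, and the transcription regulator Mterf2 fell by 0.85. Of 13 genes of mitochondrial DNA replication and repair, 5 rose and 8 did not pass the test, with a median of 0.253. Twnk, the replicative helicase, rose from 190 ± 10.8 to 316 ± 19.4, and Top1mt, the mitochondrial topoisomerase, from 167 ± 13.4 to 235 ± 21.3.

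Of 11 genes that supply nucleotides for mitochondrial DNA, 4 rose and 3 fell, beside 42.3% of all tested genes called in either direction. The median log2 fold change of these 11 was 0.01. Slc25a33, a carrier that brings pyrimidine nucleotides into the matrix, rose from 110 ± 13.8 to 388 ± 48.0 normalized counts (log2 fold change 1.82, adjusted p = 1.33e-09, edgeR). The ribonucleotide reductase subunits went in different directions. Rrm2b, the form used in cells that do not divide, rose from 228 ± 34.7 to 384 ± 46.5, while Rrm1 fell from 1256 ± 59.4 to 628 ± 58.4 and the S-phase subunit Rrm2 fell from 767 ± 75.3 to 278 ± 131. Samhd1, which degrades deoxynucleotides, fell from 524 ± 39.9 to 364 ± 26.4. The proliferation markers fell beside them, Mki67 from 734 ± 73.2 to 210 ± 46.1 and Top2a from 3241 ± 230 to 1175 ± 217, and their part in the nucleotide genes was not tested.

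Of 23 genes of mitochondrial RNA processing and stability, 8 rose and 1 fell, beside 42.3% of all tested genes called in either direction. The median log2 fold change of these 23 was 0.122. Trmt61b, a methyltransferase of mitochondrial tRNA and ribosomal RNA, rose from 38.0 ± 9.49 to 88.2 ± 18.4 and passed the study's thresholds. Fastk, which stabilizes a mitochondrial messenger, rose by 0.32 on the log2 scale, and Mrm2, which methylates the large ribosomal RNA, fell by 0.88.

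Of 20 nuclear genes known as targets of NRF-1, GABP or ERRα, 1 rose and 3 fell, beside 42.3% of all tested genes called in either direction. No test compared these shares, and the median log2 fold change was -0.07. Hspe1, the small mitochondrial chaperonin, rose from 2191 ± 56.3 to 4592 ± 174 (log2 fold change 1.07, adjusted p = 4.83e-11, edgeR). Tomm22, an import receptor, and Uqcrh, a subunit of complex III, fell by 0.475 and 0.31 on the log2 scale. Cox4i1, Cs and Cycs, named after their values were seen, had log2 fold changes of 0.07, 0.10 and -0.25 with adjusted p-values of 0.324, 0.699 and 0.0220 by edgeR.

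Transcripts of mitochondrial DNA itself went both ways. Of a list of 15, 9 were tested, and mt-Nd3, mt-Nd4l, mt-Co2, mt-Co3, mt-Atp6 and mt-Atp8 were not matched in the count table. Of the 9 tested, 4 rose and 2 fell, beside 42.3% of all tested genes called in either direction. Of the 9, 3 of the higher and 1 of the lower passed the study's thresholds, beside 7.28% of all genes. The median log2 fold change was 0.19. mt-Co1, a subunit of cytochrome oxidase, rose from 7066 ± 854 to 33155 ± 2959 normalized counts (log2 fold change 2.23, adjusted p = 2.02e-11, edgeR). The small ribosomal RNA mt-Rnr1, which TFB1M methylates, rose by 1.24 and mt-Nd5 by 1.01 on the log2 scale, while mt-Nd1 and mt-Nd2 fell by 0.96 and 1.13. The large ribosomal RNA mt-Rnr2, named after its values were seen, also rose, by 0.83 (adjusted p = 0.00134, edgeR), with overlapping groups. A link of either to Tfb1m was not tested. Since libraries were primed on poly(A) stretches, a change in these counts can follow the level or the tails of a transcript, and they cannot be told apart.

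**Figure D5:**
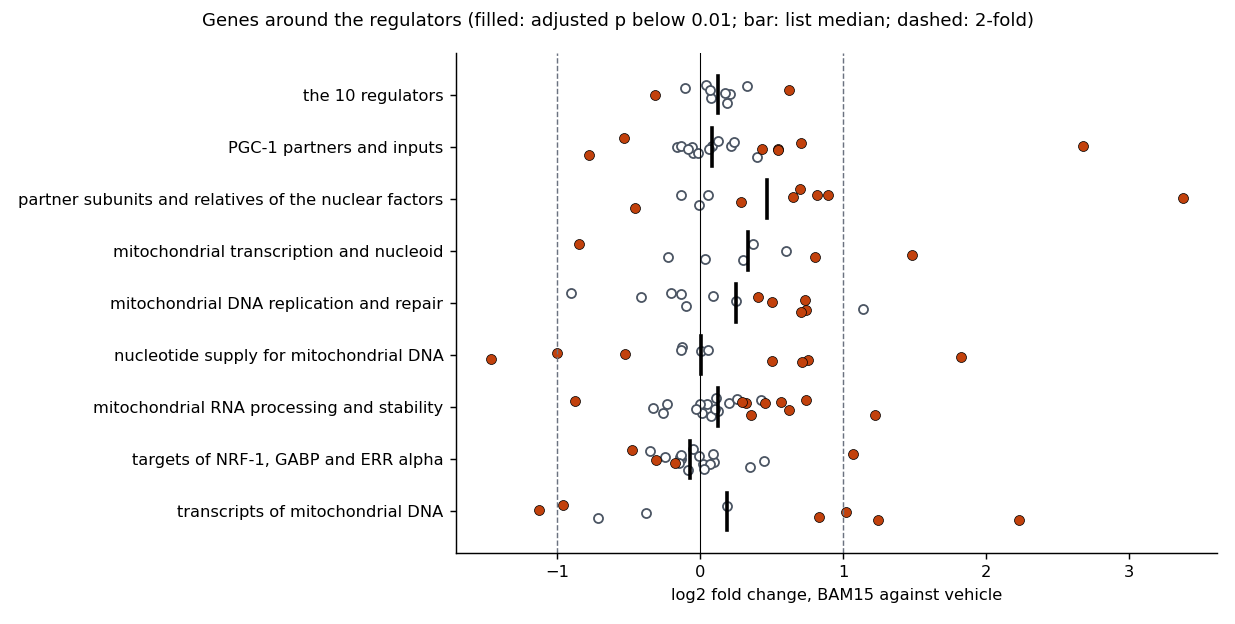
Log2 fold change, BAM15 against vehicle (horizontal axis), of every tested gene of the 10 regulators and of the 8 lists around them (rows), with filled points for an adjusted p below 0.01, a bar at the list median and dashed lines at a 2-fold change. The regulators lie between -0.31 and 0.62, while single genes of the other lists reach 3.37 (Esrrg) and -1.47 (Rrm2).

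Together 48 of the 113 tested genes on these 8 lists were called at an adjusted p below 0.01, 35 higher and 13 lower, beside 42.3% of all tested genes. With scaling by library size alone the split was 31 higher and 20 lower. The lists were written with earlier results of these data known, so their counts describe these genes and are not a test of a pathway.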

How the data were processed

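RNA of C2C12 myotubes given BAM15 or vehicle was measured in 6 QuantSeq libraries per condition, grouped by the labels. The authors deposited whole-number read counts per Ensembl gene, without normalization. Per the paper's methods the alignment was analysed in BlueBee software. The submitters' processing notes name GRCm38 (mm10) and DESeq2 1.22.2, and the aligner, counting tool, annotation and counting strand are not given in the sources used here. The authors also deposited a normalized signal, in which each library is divided by its own size factor (0.836 to 1.07) and was used only for gene symbols and this check. The tables hold 11 further columns of no sample of this series, which were not used. Labels and methods differ in read length and passage.

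Counts were analysed in R 4.3.3 with edgeR 4.0.16 (filterByExpr, TMM factors of 0.932 to 1.04, robust quasi-likelihood fit, condition only). P-values were adjusted by the Benjamini-Hochberg method over 12730 genes. A gene was called at an adjusted p below 0.01, and an interaction at 0.05. Normalized counts are TMM-scaled. The standard error is the log2 fold change divided by the square root of F, and intervals are at 95%. Within a condition every pair of libraries exceeded sampling noise (chi-square per gene of at least 4.72), so none was counted as a copy. Sequences came from RefSeq GRCm38.p6, and positions from an annotation of GRCm38. Reads of QuantSeq fall near the 3′ end, so counts do not scale with transcript length and were not compared between genes. The scripts were tested on simulated data. Sequence searches and plots used Python 3.11.15 and matplotlib 3.10.9.

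The members, lists and the split of library numbers were chosen with earlier results of these data known. The genes named were all members, those of each list past the study's thresholds, the 2 with the lowest p per direction among the called, the 3 genes most alike in profile to each called member, and genes overlapping a member's last 400 bases, with the exceptions stated in the text. Alternatives were DESeq2 1.42.0, limma-voom (limma 3.58.1), other scalings, filters and thresholds, blocks, each set of numbers alone, and each library left out.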

Additional observations from a re-analysis of the deposited data

Results flagged for a closer look

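Dixon's ratio, the gap between the most extreme library and its neighbour over the range of its group, was examined in 108 groups of 6 libraries (54 genes), and 7 exceeded the 95% critical value. Chance alone flags about 1 in 20 such groups. Among the regulators this concerned Polrmt, for which vehicle library 3 was highest at 551 normalized counts with 502 next (ratio 0.673). Pparg had a high value in BAM15 library 5, 206 against 67.7 (ratio 0.867), and a low one in vehicle library 5, 3.09 against 12.4 (ratio 0.643). Top1mt was lowest in BAM15 library 6, at 194 against 233 (ratio 0.676). Twnk was highest in BAM15 library 2, at 353 against 317 (ratio 0.692). Top2a was lowest in vehicle library 5, at 2799 against 3219 (ratio 0.657), and Ttc28 in BAM15 library 5, at 2096 against 2356 (ratio 0.675).

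The BAM15 effect differed between library numbers 4 to 6 and 1 to 3, by edgeR's interaction term, for Esrra among the members (0.792 on the log2 scale, adjusted p = 0.0444). It also differed for 4 of the 113 tested genes of the lists, each with an adjusted p of 0.0442, beside 2.66% of all 12730 tested genes. These were Rrm2 (0.973), Tefm, a mitochondrial transcription elongation factor (1.811, from -0.649 in 1 to 3 to 1.155 in 4 to 6), Slirp (0.625) and Cox5b (0.656). Tefm, Slirp and Cox5b are named after their values were seen, and over all 12 libraries none of these 3 was called.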

How the results depend on the processing

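Of 24 alternative fits, Tfb1m was called in all 24 and Ppargc1b in 18. The number of called members was 1 within library numbers 1 to 3, and it ranged from 1 to 2 when each library was left out. No alternative put a member past the study's thresholds, and 44 to 54 genes of the lists were called. Members with an interaction numbered 0 with the replicate block and ranged from 0 to 2 when each library was left out, the second being Tfam. The direction turned for Esrra within numbers 1 to 3 (-0.135) and for Tfb2m with library size only (-0.030), within numbers 4 to 6 (-0.042), without BAM15 library 2 (-0.015) and without vehicle library 5 (-0.041), with a range of -0.041 to 0.099 when each library was left out. The cause was not tested, and the partial fits hold fewer libraries. The median of all genes stayed between -0.038 and 0.028 on the log2 scale in every fit. DESeq2 called 5844 genes against 5379.

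Libraries with the same number did not deviate together throughout. Correlations of their deviations were 0.314, 0.047, 0.516, 0.307, -0.095 and 0.417 for numbers 1 to 6, and BAM15 numbers 1 to 3 all correlated best with vehicle 3, and BAM15 numbers 4 to 6 with vehicle 6. The best matches thus fell only on vehicle libraries 3 and 6, and a reason was not tested. Between the vehicle sets 0 genes differed at an adjusted p below 0.05 (696 at an unadjusted p below 0.05, edgeR). With the replicate block the called members were again 2, and 5292 genes were called. Among the results named, 1262 values kept direction and side of the threshold, 46 lost the call, 5 turned and 1 gained it. Ppargc1a had the fewest counts of the 10, and its 95% interval spans -0.238 to 0.381.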
